A study of Rattus norvegicus with 10 samples.

Results

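The genes of DNA replication and S phase were followed across 5 wild-type (WT) and 5 ARSL knockout (KO) cultures of RCS cells. A list of 47 rat gene symbols was matched, ignoring case, to the symbol column of the deposited expression table. Rows were found for 45 of them among 10184 listed genes, and Cdc45 and Rrm2 were not analysed here. RCS is a rat chondrosarcoma line that makes cartilage-like matrix, and ARSL encodes arylsulfatase L, which belongs to the sulfatase enzyme family. The WT group is labelled wild type and the KO group ARSL KO. Both were grown in serum-containing medium with no treatment, and RNA was taken 48 h after seeding for a digital mRNA-seq service. The labels call the libraries biological replicates, but state neither how many clones the KO cultures represent, nor how the knockout was made, nor the culture days. A genotype effect therefore cannot be told apart from another difference between the lines. A row named Arsl or Arse was not found, so the genotype was not checked against the targeted gene.

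Before S phase, the origin recognition complex, together with Cdc6 and Cdt1, loads the ring-shaped MCM helicase onto DNA at origins. The helicase is then activated by Cdc45 and the GINS complex, and primase with polymerase alpha starts each strand. The Pcna clamp and its loader work with polymerases delta and epsilon, and Fen1 and Lig1 finish the lagging strand. Most of these genes are transcribed as cells leave G1, under the E2F factors, so their mRNA levels are widely read as a sign of proliferation. In cartilage, chondrocytes divide in the proliferative zone and leave the cell cycle as they mature.

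Promoters are shown first because E2F factors bind a short motif near many of these genes. Whether these factors have a part in the differences between libraries given below was not tested. In the RefSeq promoter table (build GRCr8, 250 bases before to 50 after each gene start) 37 members had an entry. The E2F motif was searched as TTTGGCGC, TTTGCCGC, TTTCGCGC or TTTCCCGC on both strands, and matches may overlap. A match was found in 18 of the 37 members (48.6%), in 716 of all 33469 promoters of that length (2.14%) and in 598 of 21851 promoters of protein-coding genes (2.74%). The sequences below are of the 4 members with a match and the largest shortfall in the libraries WT 3 and WT 4 described further on, of Prim1 and Rfc1 without a match, and of Lig1, a member with a match and almost no such shortfall. Rfc1 and Lig1 were picked after their values were seen. Capitals mark the motif matches, read 5′ to 3′ along the gene.
Mcm5 promoter, chr19:13488563-13488862, plus strand: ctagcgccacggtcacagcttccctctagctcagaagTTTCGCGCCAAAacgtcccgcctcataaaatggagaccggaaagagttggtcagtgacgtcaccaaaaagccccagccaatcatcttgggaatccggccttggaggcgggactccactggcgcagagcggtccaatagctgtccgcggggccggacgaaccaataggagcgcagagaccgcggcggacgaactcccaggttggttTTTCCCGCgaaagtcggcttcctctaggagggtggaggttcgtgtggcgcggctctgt
Mcm6 promoter, chr13:42404303-42404602, minus strand: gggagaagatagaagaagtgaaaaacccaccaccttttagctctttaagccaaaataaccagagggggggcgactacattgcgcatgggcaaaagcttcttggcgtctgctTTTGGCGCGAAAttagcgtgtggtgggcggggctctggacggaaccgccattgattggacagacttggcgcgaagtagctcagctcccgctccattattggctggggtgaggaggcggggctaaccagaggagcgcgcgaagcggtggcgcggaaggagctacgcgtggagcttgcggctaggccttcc
Rfc3 promoter, chr12:5836318-5836617, plus strand: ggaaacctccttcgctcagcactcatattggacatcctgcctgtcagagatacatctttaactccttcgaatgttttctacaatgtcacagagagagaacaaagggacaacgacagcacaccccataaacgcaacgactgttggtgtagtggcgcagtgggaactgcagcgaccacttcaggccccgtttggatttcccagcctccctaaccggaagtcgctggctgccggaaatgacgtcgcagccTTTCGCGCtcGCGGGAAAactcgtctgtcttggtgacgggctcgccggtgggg
Rpa2 promoter, chr5:150260522-150260821, plus strand: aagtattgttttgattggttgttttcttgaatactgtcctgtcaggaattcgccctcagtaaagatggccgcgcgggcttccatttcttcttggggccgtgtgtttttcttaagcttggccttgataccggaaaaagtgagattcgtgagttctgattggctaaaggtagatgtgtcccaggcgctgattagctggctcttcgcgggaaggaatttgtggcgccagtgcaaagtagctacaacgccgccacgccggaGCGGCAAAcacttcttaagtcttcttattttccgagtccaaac
Lig1 promoter, chr1:83242920-83243219, plus strand: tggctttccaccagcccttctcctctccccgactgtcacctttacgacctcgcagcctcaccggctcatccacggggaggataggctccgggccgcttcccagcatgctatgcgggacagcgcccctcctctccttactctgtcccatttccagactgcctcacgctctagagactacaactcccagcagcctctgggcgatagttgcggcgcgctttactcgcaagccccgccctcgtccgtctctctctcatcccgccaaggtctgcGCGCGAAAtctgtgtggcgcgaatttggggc
Prim1 promoter, chr7:1031212-1031511, plus strand: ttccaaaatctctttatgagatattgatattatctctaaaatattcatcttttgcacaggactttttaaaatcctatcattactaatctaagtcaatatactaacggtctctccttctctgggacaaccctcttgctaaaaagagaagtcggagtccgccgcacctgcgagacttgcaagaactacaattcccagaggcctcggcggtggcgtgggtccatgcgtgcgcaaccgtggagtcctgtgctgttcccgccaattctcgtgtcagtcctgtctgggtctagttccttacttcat
Rfc1 promoter, chr14:43319748-43320047, plus strand: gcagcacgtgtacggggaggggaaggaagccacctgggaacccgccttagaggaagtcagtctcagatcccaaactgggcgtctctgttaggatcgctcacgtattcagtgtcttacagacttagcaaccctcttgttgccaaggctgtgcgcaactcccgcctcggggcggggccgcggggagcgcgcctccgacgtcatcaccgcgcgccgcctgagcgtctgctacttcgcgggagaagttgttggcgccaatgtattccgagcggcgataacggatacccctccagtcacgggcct

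In Mcm5 a forward and a reverse match overlap, 213 and 209 bases before the start, and the last match begins 8 bases before it. Mcm6 holds such an overlapping pair too, 139 and 135 bases before its start. In Rfc3 the first match begins 3 bases before the start and runs across it, and the other begins at base 8 of the gene. Rpa2 has 1 match, at base 8 of the gene. A match is a description of these letters and was not tested as a binding site, and no match says only that these letters are absent from the window.

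The table holds variance-stabilized values on a log2-like scale. Inverting the transformation returned whole reads in every library, between 2065594 and 2591819 in each, and levels are given below as such reads after size-factor scaling (normalised reads). Cartilage-like expression was visible in the cartilage markers, of which 15 of 17 symbols were found. Their summed level was 45529 to 76349 normalised reads in WT and 44984 to 59707 in KO. Sox9 was not analysed here. Markers of other cells were few. The 2 of 8 fibroblast markers found, Thy1 and Pdgfra, summed to 12.2 to 49.2 normalised reads over all libraries, with Pdgfra at 0 in WT 1. The 3 of 7 immune markers found summed to 25.8 to 62.4, and 0 of 4 endothelial symbols were found. Krt8, an epithelial keratin, lay between 395.5 and 509.5, and the osteoblast markers Alpl, Runx2 and Ibsp summed to 532.7 to 1141, with Ibsp at 8.6 or less.

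Libraries WT 3, WT 4 and ARSL KO 4 stood apart from the rest of their groups on the first principal component of all tested genes, with scores of 28, 26.8 and 7.9 against -15 to -3 for the other 7. The labels do not set these libraries apart. What follows on them is therefore described with no test, and genotype results are given with and without them.

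Replication genes were low in WT 3 and WT 4. Pcna, the sliding clamp of the polymerases, had 1047, 1045, 564.6, 469.4 and 912.2 normalised reads in WT 1 to WT 5 and 1135, 1136, 1004, 730.0 and 1055 in KO 1 to KO 5. WT 3 and WT 4 lay below every other library of either genotype, and KO 4 lay below the remaining KO libraries. Of 44 members above the filter on low values, 39 had both WT 3 and WT 4 below all the other WT libraries, a pattern that 29.0% of all 8431 tested genes also showed. The opposite pattern was shown by Orc3 alone, against 27.2% of all genes. The members' median difference of WT 3 and WT 4 from the other WT libraries was -0.56 on the log2-like scale, and the median over all tested genes was -0.01. In normalised reads the mean of the pair was 0.597 of the mean of the others as a median over members, and it was under 0.5 for 13 members.

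**Figure D1:**
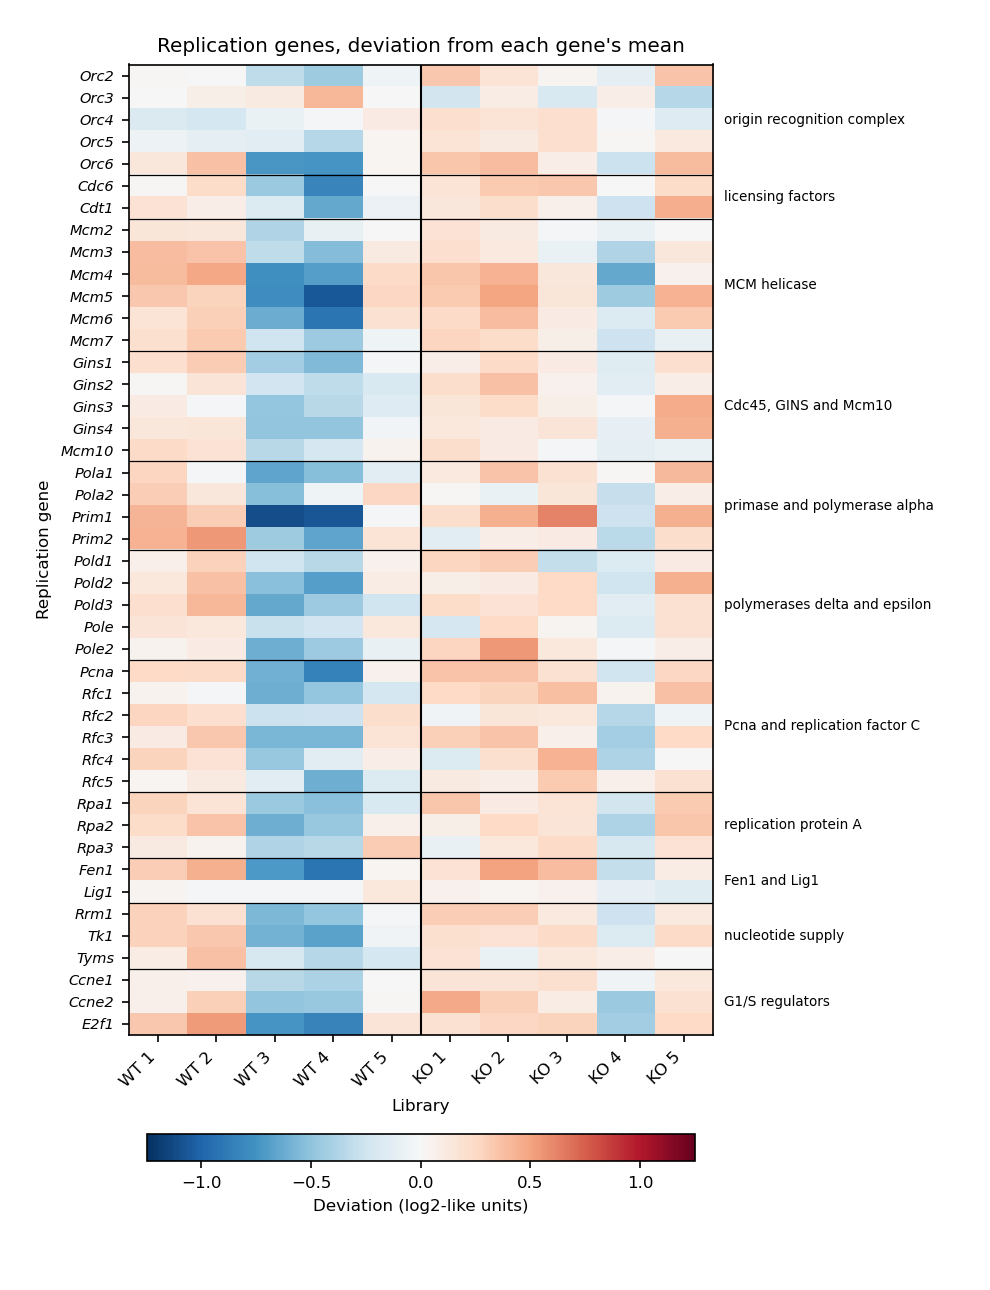
Each row is a replication gene, grouped by role, and each column a library; the colour gives the deviation from the gene's mean over the 10 libraries in log2-like units, blue low and red high. The columns WT 3 and WT 4 are blue in nearly every row, 39 of 44 having both values below the other WT libraries, KO 4 is a paler blue, and Lig1 and Orc3 do not share the pattern.

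The same order of libraries recurred within the KO group and in the remaining WT library. KO 4 was the lowest KO library for 38 of 44 members, against 27.2% of all genes, and the highest for 0, against 26.7%. Its level was 0.712 of the mean of the other KO libraries as a median over members. WT 3, WT 4 and KO 4 together were the lowest of all 10 libraries for 28 members, against 12.0% of all genes. WT 5 lay between the low pair and WT 1 and WT 2 for 33 members, against 14.0%. The summed level of the 45 members showed this order: 12434 and 12698 normalised reads in WT 1 and WT 2, 10939 in WT 5, 7213 in WT 3 and 6916 in WT 4, beside 8892 in KO 4 and 12001 to 12779 in the other KO libraries. In bulk RNA, fewer cells in S phase and less of these mRNAs per cell cannot be told apart.

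Other measures set WT 3 and WT 4 apart too, and their part in the result was not tested. Of 14 tested cartilage markers, 13 had both WT 3 and WT 4 above the other WT libraries, as had 27.2% of all tested genes. The osteoblast markers Runx2 and Alpl also had both values above. Acan, the main proteoglycan of cartilage, had 4707 and 4955 normalised reads in WT 3 and WT 4 against 2812 to 3520. In the KO group, KO 4 was the highest library for 9 of the 14 cartilage markers and the lowest for 1. Over all tested genes these shares were 26.7% and 27.2%. Runx2 and Alpl were also highest in KO 4, and Acan had 5675 there against 3084 to 5018 in the other KO libraries. Reads of genes whose symbol begins with Mt- made up 4.59% and 4.47% in WT 3 and WT 4 and 6.26% to 6.41% in the other WT libraries. In KO this share did not follow the order of the replication genes: KO 4, at 4.95%, lay within the 3.67% to 5.03% of the other KO libraries. Depth did not order the libraries in this way, at 2118490 and 2434087 reads in WT 3 and WT 4 and 2159705 to 2591819 in the other WT libraries.

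In the MCM helicase, whose ring holds Mcm2 to Mcm7 in equal number, all 6 genes had both low values, but by unequal amounts. Mcm5 had 216.2, 205.2 and 203.0 normalised reads in WT 1, WT 2 and WT 5 and 79.9 and 59.3 in WT 3 and WT 4. Its low pair thus lay at 0.334 of the others, and KO 4, with 109.3, lay below the other KO libraries (185.6 to 244.4). Mcm4 behaved alike, with 533.8 to 639.7 in the other WT libraries, 245.1 and 260.0 in the pair, 272.3 in KO 4 and 465.5 to 614.8 in the other KO libraries. Mcm2 had 513.4, 510.0 and 458.8 in WT 1, WT 2 and WT 5 against 344.6 in WT 3 and 429.2 in WT 4, at 0.783 of the others. The ratio of Mcm5 to Mcm2 reads was 0.402 to 0.442 in the other WT libraries, 0.232 in WT 3, 0.138 in WT 4, 0.253 in KO 4 and 0.409 to 0.513 in the other KO libraries, with no overlap between the 3 low libraries and the rest. Mcm6, Mcm3 and Mcm7 lay at 0.472, 0.589 and 0.669.

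Primase and polymerase alpha also parted. Prim1, the catalytic primase subunit, had the widest gap of all members. It had 424.5, 389.1, 121.4, 126.2 and 302.3 normalised reads in WT 1 to WT 5 and 362.9, 432.3, 493.9, 248.9 and 430.5 in KO 1 to KO 5. The mean of WT 3 and WT 4 was 0.333 of that of the others, and KO 4 was the lowest KO library. Prim2, the other primase subunit, lay at 0.393, while the polymerase subunits Pola1 and Pola2 lay at 0.598 and 0.602. Prim1 to Pola1 ratios were 1.14 to 1.34 in the other WT libraries, 0.698 and 0.653 in WT 3 and WT 4, 0.828 in KO 4 and 1.06 to 1.43 in the other KO libraries. These ratios, like those of the other gene pairs given here, were chosen after the values were seen.

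The origin recognition complex was the most uneven group. Orc6 had 151.7, 182.9 and 137.4 normalised reads in WT 1, WT 2 and WT 5 and 66.7 and 66.0 in WT 3 and WT 4, at 0.422 of the others. Orc2 (0.717) and Orc5 (0.849) lay closer. Orc4, with 21.3 to 33.8 in the other WT libraries and 26.3 and 28.7 in the pair, overlapped. Orc3 went the other way, at 43.8 and 61.2 in the pair against 38.1 to 41.6. Orc1 was below the filter, with 2 to 12 recovered reads per library, and was not tested.

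At the lagging strand, Fen1, the flap nuclease, had 209.2, 234.2, 84.2, 68.8 and 164.9 normalised reads in WT 1 to WT 5 and 188.9, 246.6, 223.4, 124.9 and 174.9 in KO 1 to KO 5. WT 3 and WT 4 lay at 0.377 of the other WT libraries, below every other library, and KO 4 was the lowest KO library. Lig1, the ligase that seals the resulting nicks, had 780.1, 750.1, 757.1, 753.3 and 843.5 normalised reads in WT 1 to WT 5 and 796.6, 779.8, 794.9, 706.6 and 685.2 in KO 1 to KO 5. The pair lay at 0.954 of the other WT libraries. Lig1 thus did not share the pattern of the replication genes. Its promoter holds an E2F motif match, at base 20 of the gene, and whether the match bears on its level was not tested. Orc3, Orc4 and Lig1 each overlap another gene in the RefSeq annotation (Rars2, Acvr2a with Mbd5, and Zswim9), as does Fen1 (Tmem258). Whether counting used the strand is unknown here, so reads of overlapping genes cannot be told apart.

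**Figure D2:**
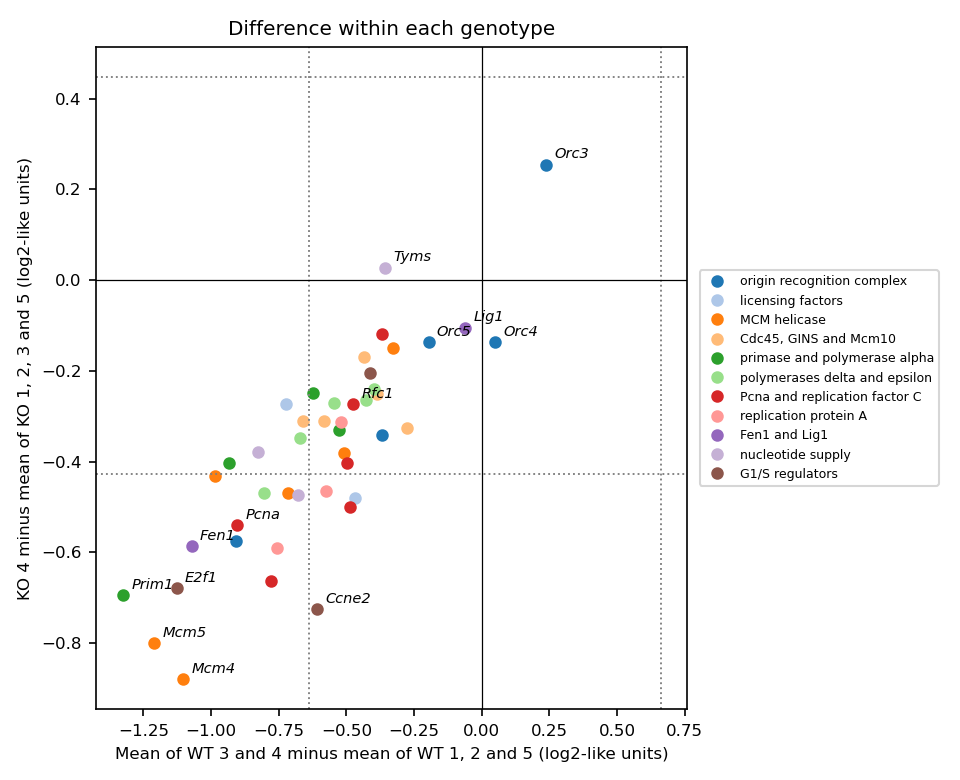
Each point is a tested replication gene, coloured by role; the horizontal axis gives the mean of WT 3 and WT 4 minus the mean of WT 1, 2 and 5, and the vertical axis KO 4 minus the mean of the other KO libraries, both in log2-like units. Dotted lines mark the 5th and 95th percentiles of all tested genes (-0.64 and 0.66 across, -0.43 and 0.45 up). Prim1, Mcm5, Mcm4, E2f1 and Fen1 lie below the 5th percentile on both axes, and so do Mcm3, Mcm6, Pcna, Orc6, Rfc3, Rpa2, Pold2 and Rrm1. Lig1 and Orc4 lie near the origin and Orc3 above it.

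Values in every library are given next for the members with the most reads or the smallest p of each role, by the order of events at a fork. Mcm3 had 910.0, 889.4, 541.6, 458.9 and 747.3 normalised reads in WT 1 to WT 5 and 799.8, 751.6, 644.4, 521.1 and 765.0 in KO 1 to KO 5. Mcm6 had 549.1, 602.9, 299.8, 237.1 and 555.0 normalised reads in WT 1 to WT 5 and 578.7, 643.0, 520.7, 424.5 and 614.3 in KO 1 to KO 5. In both, WT 3 and WT 4 were the lowest WT libraries and KO 4 the lowest KO library. Cdc6, the loader of the helicase, had 156.9, 188.7, 102.8, 71.7 and 155.4 normalised reads in WT 1 to WT 5 and 179.3, 205.3, 205.9, 154.2 and 188.3 in KO 1 to KO 5. Gins3 had 138.6, 123.9, 79.9, 91.8 and 108.9 normalised reads in WT 1 to WT 5 and 144.9, 154.2, 134.8, 123.9 and 189.2 in KO 1 to KO 5. Cdc6 and Gins3 were likewise low in WT 3 and WT 4, and KO 4 was the lowest KO library, at a level near that of WT 1 and WT 5 for Cdc6 and of WT 2 for Gins3. Pola1, the catalytic subunit of polymerase alpha, had 364.3, 290.3, 174.0, 193.1 and 265.3 normalised reads in WT 1 to WT 5 and 326.4, 389.9, 344.4, 300.6 and 404.5 in KO 1 to KO 5. Pole2, the second subunit of polymerase epsilon, had 29.6, 31.9, 9.8, 13.4 and 24.3 normalised reads in WT 1 to WT 5 and 39.7, 54.3, 33.2, 27.3 and 31.4 in KO 1 to KO 5. Pold2, a subunit of polymerase delta, had 203.1, 245.8, 114.9, 98.5 and 195.6 normalised reads in WT 1 to WT 5 and 193.2, 197.7, 223.4, 146.4 and 261.9 in KO 1 to KO 5. In these 3 polymerase genes the WT pair was again low, and KO 4 was the lowest KO library.

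Rpa1, the large subunit of replication protein A, had 263.2, 241.0, 142.2, 134.8 and 179.7 normalised reads in WT 1 to WT 5 and 277.0, 229.2, 241.9, 173.7 and 273.5 in KO 1 to KO 5. Rpa3, the smallest, had 263.2, 248.7, 176.2, 180.7 and 308.7 normalised reads in WT 1 to WT 5 and 223.3, 267.2, 291.7, 204.9 and 278.0 in KO 1 to KO 5. Both showed the low pair in WT and the low KO 4. Tk1, which salvages thymidine, had 1109, 1152, 584.2, 551.6 and 875.3 normalised reads in WT 1 to WT 5 and 1040, 1029, 1071, 800.2 and 1076 in KO 1 to KO 5. Ccne1, a cyclin E, had 129.9, 128.7, 88.6, 84.1 and 122.6 normalised reads in WT 1 to WT 5 and 141.7, 141.2, 146.8, 118.1 and 137.2 in KO 1 to KO 5. Tk1 was low in the same 3 libraries, and for Ccne1 KO 4 lay between the low pair and the other WT libraries.

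The remaining roles were more even. In the pair the GINS genes and Mcm10, which serve helicase activation, lay between 0.438 (Gins1) and 0.693 (Gins3) of the other WT libraries, with Gins4, Mcm10 and Gins2 at 0.568, 0.604 and 0.638. Polymerases delta and epsilon lay between 0.406 (Pole2) and 0.655 (Pold1), with Pold3, Pold2 and Pole at 0.483, 0.497 and 0.599. The clamp and its loader spanned 0.516 (Pcna) to 0.732 (Rfc5, the member of this group whose pair did not lie wholly below the others, at 147.7 and 96.6 against 144.8 to 184.9). Replication protein A, which coats single-stranded DNA, spanned 0.491 (Rpa2) to 0.652 (Rpa3). The licensing factors lay at 0.523 (Cdc6) and 0.646 (Cdt1). Of the enzymes that supply nucleotides, thymidine kinase Tk1 and the reductase subunit Rrm1 lay at 0.543 and 0.585. Tyms, the thymidylate synthase, had only 10 to 33 recovered reads per library and overlapped.

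E2f1, which encodes an E2F activator and is itself an E2F target, had 446.3, 514.9, 190.4, 175.9 and 387.9 normalised reads in WT 1 to WT 5 and 397.2, 420.3, 426.5, 244.0 and 415.2 in KO 1 to KO 5. WT 3, WT 4 and KO 4 lay below all others. Cyclin E genes, whose products drive Cdk2 at S-phase entry, lay at 0.595 (Ccne2) and 0.680 (Ccne1) in the pair. The pair's shortfall was set beside the E2F motif: its median was -0.53 over 18 with a match and -0.53 over 19 without, with ranges of -1.21 to 0.24 and -1.32 to -0.28.

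**Figure D3:**
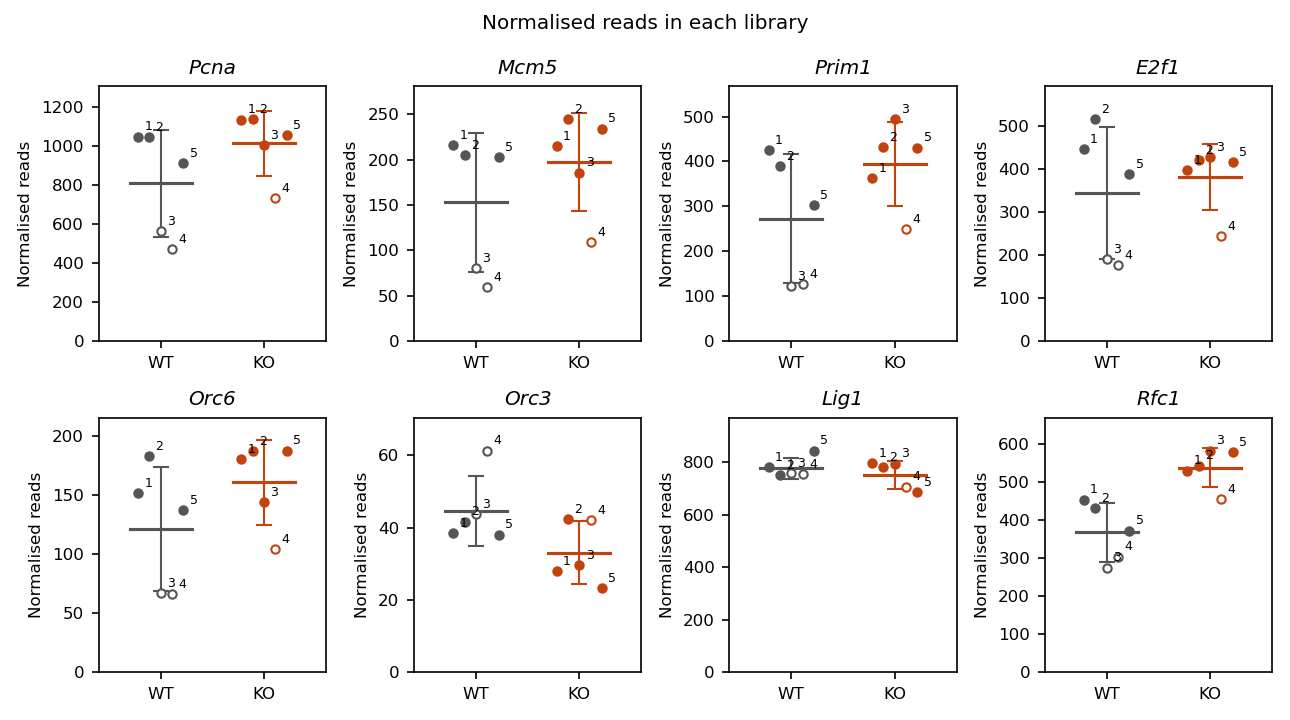
Points are the normalised reads of single libraries (vertical axis), numbered by replicate, for WT (grey) and KO (orange); bars give the group mean and SD (n = 5) and open points mark WT 3, WT 4 and KO 4. In Pcna, Mcm5, Prim1, E2f1 and Orc6 the open points lie below the filled ones of the same genotype, in Lig1 they do not, Orc3 is highest in WT 4, and in Rfc1 all KO points lie above all WT points.

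Against this spread, KO and WT cultures were compared with limma over all tested genes, with Benjamini-Hochberg adjustment and a call at an adjusted p under 0.05. Most replication genes were somewhat higher in KO, and 0 of 44 were called, where 1.14% of all tested genes were. The difference KO minus WT was positive for 39 members and negative for 5. Its median was 0.24, beside 0.01 over all tested genes, and the mean level in KO was 1.20 times that in WT as a median over members, from 0.740 (Orc3) to 1.70 (Pole2). At an unadjusted p under 0.05 there were 9 members higher in KO, where 6.16% of all genes were, and 0 lower, where 7.32% were. These 9 were Orc2, Orc5, Cdc6, Gins3, Pola1, Pole2, Rfc1, Rfc5 and Ccne1.

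Without WT 3, WT 4 and KO 4 most of this difference was gone. The median over members was 0.04, beside 0.01 over all genes, 26 members were positive and 18 negative, and the difference was nearer to 0 for 35 of 44. KO levels were then 1.03 times those of WT as a median, from 0.749 (Prim2) to 1.39 (Pole2). For Prim1 the difference was 0.58 (95% interval -0.02 to 1.19) with all libraries, with means of 272.7 ± 143 (WT) and 393.7 ± 93.3 (KO) normalised reads (± SD, n = 5 each), and 0.19 (-0.02 to 0.41) without the 3. Pcna differed by 0.36 (-0.07 to 0.80) and 0.11 (-0.07 to 0.28), from 807.7 ± 273 in WT and 1012 ± 167 in KO with all libraries. For E2f1 and Mcm3 the sign turned, from 0.22 to -0.10 and from 0.01 to -0.19. With all libraries the 95% interval of the difference lay within -1 and 1 for 43 of 44 members, Prim1 being the exception, and it held 0 for 35.

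**Figure D4:**
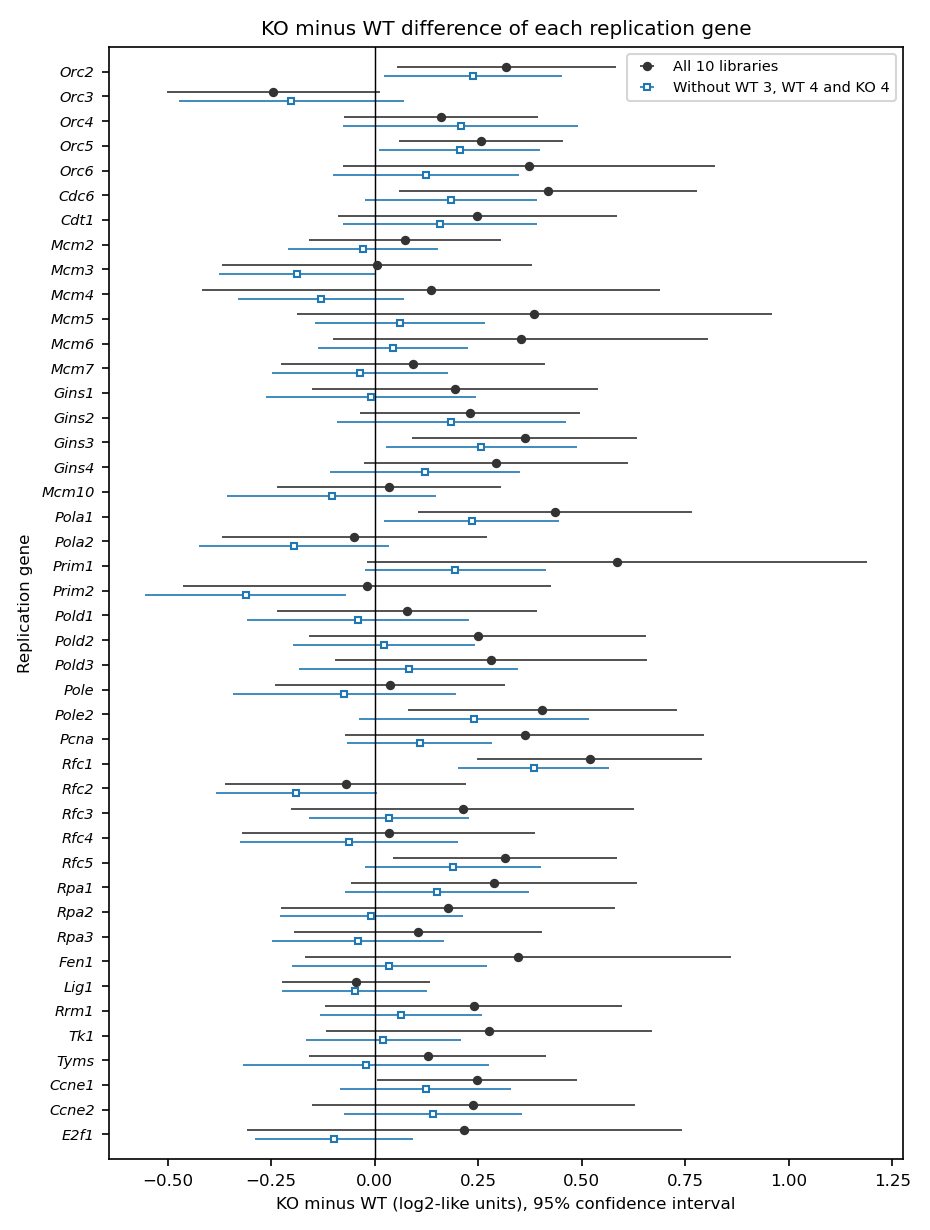
Points give the KO minus WT difference of each tested replication gene in log2-like units with its 95% confidence interval, for all 10 libraries (black circles) and without WT 3, WT 4 and KO 4 (blue squares). Most black points lie right of 0, 39 of 44, and the blue points lie nearer to 0 for 35 of 44, mostly with shorter intervals; Prim2 moves further left, and the interval of Rfc1 lies right of 0 in both.

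Rfc1, the large subunit of the clamp loader, was the member with the smallest p. It had 455.0, 432.6, 275.7, 305.0 and 373.1 normalised reads in WT 1 to WT 5 and 531.4, 544.2, 583.5, 455.8 and 579.4 in KO 1 to KO 5. All KO values lay above all WT values, by a margin of under 1 read between KO 4 and WT 1, as for 1.86% of all genes, and 0 members lay wholly below, against 2.40%. The means were 368.3 ± 77.9 and 538.8 ± 51.5 (SD, n = 5 each), a 1.46-fold difference, or 0.52 in log2-like units with an SE of 0.127, and did not pass (limma adjusted p = 0.0723). Without the 3 libraries Rfc1 was higher in KO by 0.38 ± 0.0887 (SE), or 1.33-fold. It then passed (limma adjusted p = 0.012), as did 3.56% of all genes in that fit. These libraries were left out for their measured values in the same data, so that p is only descriptive. Rfc1 also passed without WT 1 (adjusted p = 0.0362) and with array quality weights, which give noisier libraries less weight (adjusted p = 0.0436). Over the fits with a single library left out its adjusted p ran from 0.0362 to 0.196. For the 4 smaller loader subunits the folds were 0.937 for Rfc2, 1.16 for Rfc3, 1.04 for Rfc4 and 1.29 for Rfc5 (limma adjusted p = 0.282 to 0.949), and 0.861, 1.03, 0.958 and 1.17 without the 3 libraries. The difference between subunits was not tested.

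Once the 3 libraries were left out, 4 of 44 members lay wholly higher in KO, Ccne1, Orc2, Orc5 and Rfc1, where 6.80% of all genes did. Rfc2 alone lay wholly lower, where 7.79% did. The count higher lies near the share over all genes and the count lower is below it, and neither was tested. Orc5, the member of its complex with the smallest p, had 185.7, 179.0, 175.1, 144.4 and 199.8 normalised reads in WT 1 to WT 5 and 225.4, 215.1, 233.6, 199.1 and 217.0 in KO 1 to KO 5. Its groups overlapped only through KO 4 and WT 5, and the difference was 0.26 ± 0.0923 (SE; limma adjusted p = 0.226), and 0.20 without the 3 libraries (0.275). Orc2 differed by 0.32 (adjusted p = 0.264), Gins3 by 0.36 (0.215), Pola1 by 0.43 (0.222), Pole2 by 0.40 (0.246), Cdc6 by 0.42 (0.282), Rfc5 by 0.31 (0.282) and Ccne1 by 0.25 (0.355), and without the 3 libraries, in the same order, by 0.24, 0.26, 0.23, 0.24, 0.18, 0.19 and 0.12 (limma adjusted p = 0.242 to 0.621). Lig1, whose level was the steadiest across libraries of the members shown here, differed by -0.04 (95% interval -0.22 to 0.13), and by -0.05 (-0.22 to 0.13) without the 3. Orc3 differed by -0.24 (-0.50 to 0.01), and by -0.20 (-0.47 to 0.07) without them.

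In the limma comparison described first, no member of any complex was called, and Rfc1 was called only in alternative fits. Fold differences of KO over WT ran from 0.982 to 1.29 within the MCM helicase, from 0.922 to 1.44 within primase and polymerase alpha, from 1.04 to 1.70 within polymerases delta and epsilon and from 1.07 to 1.24 within replication protein A. The smallest limma adjusted p in these groups was 0.492, 0.222, 0.246 and 0.464. Without the 3 libraries the same ranges were 0.872 to 1.06, 0.749 to 1.19, 0.928 to 1.39 and 0.969 to 1.12, with smallest limma adjusted p of 0.322, 0.159, 0.408 and 0.557. Pole2, at the upper end, rests on few reads, with means of 21.8 ± 9.8 (WT) and 37.2 ± 10.6 (KO) normalised reads (± SD, n = 5 each). Wider in direction were Pcna and its loader, at 0.937 (Rfc2) to 1.46 (Rfc1) with all libraries (smallest limma adjusted p = 0.0723). The origin recognition complex ran from 0.740 (Orc3) to 1.33 (Orc6), with a smallest limma adjusted p of 0.226. Without the 3 libraries these 2 ranges were 0.861 to 1.33 and 0.782 to 1.33.

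Further genes of the same processes were read from 5 lists. Of 41 tested accessory replication genes (origin-firing kinases, fork proteins, chromatin assembly and repair at the fork), 28 had WT 3 and WT 4 below the other WT libraries and 2 had them above, where all tested genes gave 29.0% and 27.2%. Of 20 mitotic genes, 17 had them below and 0 above, of 21 genes of nucleotide synthesis and salvage 14 and 0, of 23 genes of G1/S control 9 and 5, and of 7 checkpoint genes 3 and 1. The G1/S control and checkpoint counts lie near the shares over all genes. These counts were not tested against each other. The median differences of the pair were -0.44, -0.51, -0.29, -0.19 and -0.09 in that order of lists. An E2F motif match was found in 14 of 34 promoters of accessory genes (41.2%) but in 1 of 17 of mitotic genes (5.88%).

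Mean deviations of the replication genes and of the mitotic genes were alike in WT 3 (-0.45 and -0.42), but in KO 4 they were -0.19 and -0.04, and in WT 5 they were 0.02 and -0.13. Within G1/S control, Cdk4, a kinase that starts G1 progression, had 199.8 to 274.6 normalised reads in the other WT libraries and 123.6 and 96.6 in WT 3 and WT 4. The Cdk inhibitor Cdkn1b had 207.2 to 261.5 and 343.5 and 313.6, so that it lay higher in the pair. Cdkn1a, another Cdk inhibitor and a p53 target, went with the replication genes, at 488.4 to 626.2 against 318.4 and 369.0. These 3 genes were named after their values were seen.

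**Figure D5:**
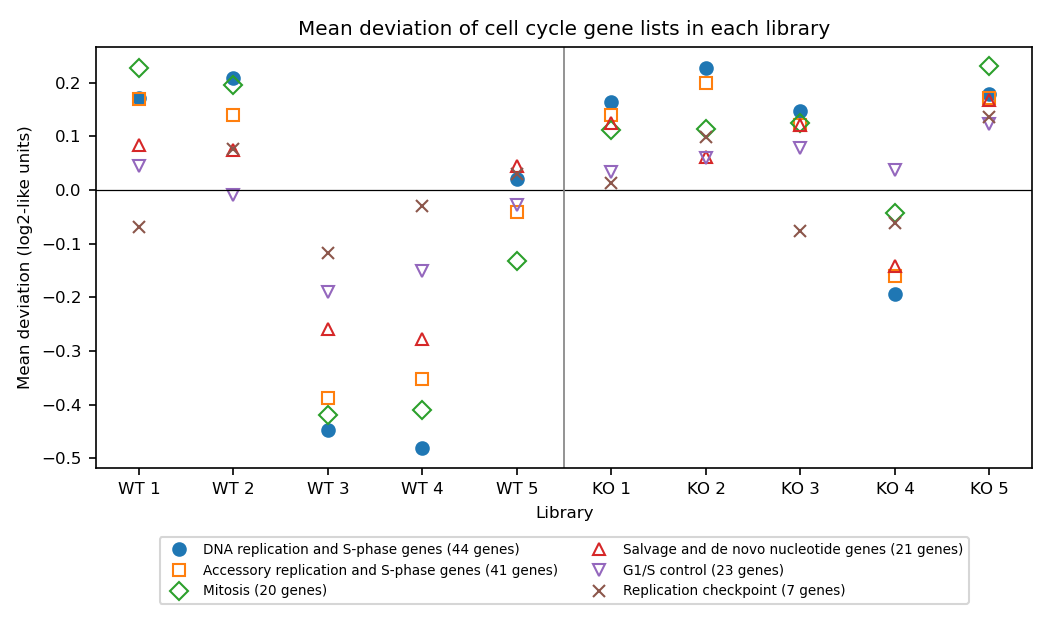
Each symbol is the mean deviation of a list's tested genes from their own means, in log2-like units (vertical axis), in each library (horizontal axis). The replication genes (filled circles) are at -0.45 and -0.48 in WT 3 and WT 4 and at -0.19 in KO 4, with accessory replication and mitotic genes beside them in WT 3 and WT 4, and the checkpoint and G1/S control lists nearer to 0.

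In KO against WT, 0 of the 112 tested genes of these lists were called, where 1.14% of all tested genes were. At an unadjusted p under 0.05, 5 accessory, 6 G1/S control, 5 nucleotide, 4 mitotic and 0 checkpoint genes were higher in KO (6.16% of all genes), and 2, 2, 1, 0 and 0 were lower (7.32%). Cdc7, the kinase that fires licensed origins, came nearest. It had 37.2 to 76.7 normalised reads in WT and 67.3 to 132.0 in KO, where the groups overlap through KO 4, a 1.82-fold difference (0.60 in log2-like units with an SE of 0.142, limma adjusted p = 0.0629). Leaving out the 3 libraries gave much the same difference, 0.61 with an SE of 0.114 (1.81-fold, limma adjusted p = 0.00219, likewise only descriptive). Cdc7 was also called without WT 1 or without KO 4. Dbf4, its activating subunit, is a member of the same list and was not called. The genes with the smallest p in the other lists were Ube2c among mitotic genes (0.37, adjusted p = 0.186), Impdh1 among nucleotide genes (0.34, 0.118), E2f6 in G1/S control (0.34, 0.13) and Atrip among checkpoint genes (0.18, 0.574). Without the 3 libraries these differed by 0.29 (limma adjusted p = 0.102), 0.31 (0.0914), 0.40 (0.0891) and 0.0036 (0.997).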

How the data were processed

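Gene expression was measured in 5 WT and 5 ARSL KO libraries. Per the submitters' processing notes, bcl2fastq, STAR 2.7.11a and HTSeq were used on rn6; not given in the sources used here: what tool made the variance-stabilized values, the gene filter, whether strand was used. What the authors deposited is a single table of log2-like, variance-stabilized values. The lowest value, 4.42, shared by all libraries, is that of a count of 0. Inverting the closed form of the transformation gave whole reads for 100% of values (largest departure 3.81e-09 reads). Every listed gene had at least 30 reads in all and a read in at least 3 libraries. Tests took the 8431 genes whose mean exceeded that floor by 1 or more (about 10.7 normalised reads). The deposited log2-like values were tested with limma 3.58.1 (R 4.3.3), two-sided, with empirical Bayes variances and an intensity trend. The fit was tested on simulated data, in which each gene was drawn separately. No shift shared by libraries was simulated, so error rates under the shift of WT 3, WT 4 and KO 4 are not known from it. Differences in log2-like units understate the fold of weakly expressed genes. P-values measure the spread between these libraries, whose independence as cultures rests on the labels. Replicates were compared by chi-square per degree of freedom over reads. The lowest value was 1.85 (WT 1 with WT 2), above sampling noise, and all were kept. WT 3 with WT 4 gave 2.37, but either of them with WT 1, WT 2 or WT 5 gave 15.7 to 21.3. Within KO the values ran from 2.19 to 10.7. The WT libraries were thus not evenly spread, while the tests treat the 5 as independent replicates.

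The members, lists and splits were chosen with earlier results of these data known. Values in every library are given, by rule, for the member with the smallest p and the member with the highest mean reads of each role, 18 in all, and for others picked after their values were seen. From each further list the gene with the smallest p is named. RefSeq names (GRCr8) matched all 45 members; 15 overlap another gene and 11 have a copy by name, such as Pcna and Tk1, and their reads are uncertain to that extent. Alternatives were other filters, centring or quantile normalization, other variance settings, array quality weights, voom on the recovered reads, log2 of normalised reads plus 1, a replicate block, and fits without single libraries or without WT 3, WT 4 and KO 4. Figures were drawn with matplotlib 3.10.9.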

Additional observations from a re-analysis of the deposited data

Results flagged for a closer look

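A library far from the other 4 of its group was found in 4 of 88 groups of 5 looked at (44 members in each genotype), where chance flags about 1 in 20 groups. In 3 of them KO 4 was the low library: E2f1 at 244.0 normalised reads against 397.2 to 426.5, Tk1 at 800.2 against 1029 to 1076, and Pold3 at 72.2 against 98.8 to 105.2. The fourth was Orc3 in WT 4, at 61.2 against 38.1 to 43.8. The measure looks for a single extreme library, and WT 3 and WT 4 were low together.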

How the results depend on the processing

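Over all tested genes, replicate numbers did not clearly pair the libraries. Same-numbered WT and KO libraries had correlations of deviations of -0.0644, 0.0686, -0.293, 0.587 and 0.263, and 4 of 10 libraries correlated best with their own number. Replication genes were low in both WT 4 and KO 4, but WT 3 was low and KO 3 was not. Among the members, the replicate block lowered the SE for some, such as Mcm5 (0.268 to 0.132) and Pcna (0.203 to 0.118). It raised the SE for others, such as Lig1 (0.0836 to 0.0971) and Orc4 (0.110 to 0.127). With the replicate block 1 member was called, Rfc1 (limma adjusted p = 0.0401). Of all 8431 tested genes, 32 were called higher in KO and 104 lower in that fit. The count of members was also 1 with array quality weights (0.0436) and without WT 3, WT 4 and KO 4, and 0 to 1 with a single library left out. It was 0 under every other setting, voom on the recovered reads included. From the further lists 1 gene, Cdc7, was called with array quality weights and without the 3 libraries, and 0 to 1 genes with a single library left out. Members whose genotypes did not overlap numbered 2 after median centring, 2 after quantile normalization and 5 without the 3 libraries. In that last setting 6.80% of all tested genes lay wholly higher in KO and 7.79% wholly lower. With the deposited values of all libraries these shares were 1.86% and 2.40%, and they are not given here after centring or quantile normalization. Over all genes, 96 calls became 60 with the stricter filter, 219 with array quality weights, 300 without the 3 libraries and 33 to 101 with a single library left out (33 without KO 3, 37 without KO 2 or KO 5, 53 without KO 1, 62 without WT 3). The median difference over members ran from 0.14 to 0.34 with a library left out and was 0.09 with array quality weights. Of 481 recomputed differences of 23 members, 12 turned sign: E2f1 to -0.051 with array quality weights and -0.10 without the 3 libraries, Rpa3 to -0.0043 and -0.040, and Mcm3 to -0.16 and -0.19, to -0.019 after quantile normalization and to between -0.13 and 0.10 with a library left out. The cause was not tested. Members with few reads, such as Tyms, Pole2 and Orc1, are limited by depth.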
